A study of Arabidopsis thaliana and Setaria viridis and Zea mays with 22 samples.

Results

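Cluster 2 is 1 of 19 groups into which the study sorted cells and nuclei from the root tips of 3 grasses by their gene expression. Its members were chosen by the cluster number that the authors deposited for each cell, which rests on measured gene expression, and the cluster itself was selected on its low share of protoplasts. They came to 3461 of the 43212 cells and nuclei analysed here. Of these members, 3369 were nuclei and 92 were protoplasts. Setaria viridis A10.1 gave 3 libraries of protoplasts and 2 of nuclei. Sorghum bicolor Btx623 gave a single protoplast library and 3 of nuclei, and Zea mays B73 gave 4 of nuclei. Roots of Setaria grew for 15 days and were cut 0.2 cm from the tip, while roots of sorghum and maize grew for 7 days and were cut 0.5 cm from the tip. An age of 10 days is tagged on every sample, which differs from these times. The labels name no treatment of the plants. Per the labels, version 2 of the 10x kit was used for Setaria protoplast replicate 1, the sorghum protoplasts and all maize nuclei, whereas every other library was made with version 3. Maize nuclei therefore differ from the nuclei of both other grasses in kit version as well as in species, and these cannot be told apart. Setaria likewise differs from sorghum and maize in growth time and length of tip, which cannot be told apart from species. The sorghum nuclei libraries are called Sorgh_Nucl, Sorgh_Nucl1 and Sorgh_Nucl2, as deposited.

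A protoplast is a plant cell whose wall has been digested by enzymes, so a cell is recovered as a protoplast only if its wall gives way and the cell survives. Nuclei are released by lysis and need no wall digestion. A root tip is layered, with cap and epidermis outside, cortex and endodermis within, and the vascular stele at the centre, and the walls of these layers differ. The deposited table lists no genes, so markers of these layers were not analysed here and no tissue name is given to cluster 2.

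For each cell the table gives detected genes and UMIs (unique molecular identifiers, which count captured transcripts). Libraries held 113 to 8551 cells and 536441 to 175885808 UMIs. Setaria protoplast replicate 1 stood apart from the other Setaria protoplast libraries, with a median of 3593 UMIs per cell, against 19938 and 22643.5. No barcode was listed more than once within a library. Over the 78 pairs of libraries, 229 barcodes occurred in both libraries of a pair, none of them with equal UMIs, and in no case were both cells in cluster 2. Whether a group's libraries were raised as separate plantings is not stated in the labels, and every spread and p-value given here is between libraries and may be technical.

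In nuclei, cluster 2 was one of the largest clusters in all 3 grasses. It took 9.14% and 12.5% of nuclei in Setaria replicates 1 and 2. In sorghum it took 12.1% of nuclei in Sorgh_Nucl, 13.3% in Sorgh_Nucl1 and 12.6% in Sorgh_Nucl2. In maize it took 10.6%, 12.3%, 13.8% and 9.03% of nuclei in replicates 1 to 4. The ranges of the 3 species overlap, and in each of the 9 libraries cluster 2 ranked between the first and the fourth of the clusters by size.

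Averaged over the 9 nuclei libraries, cluster 2 took 11.7% ± 1.73 (SD) and was second in size. Its neighbours in that order were cluster 0 at 14.4% ± 4.30 and cluster 1 at 8.71% ± 3.23. Both differences in mean are smaller than the SD of the neighbour between libraries. Whether the mean of cluster 2 differs from these was not tested. Its relative spread was the smallest of all 19 clusters, with an SD equal to 14.8% of the mean. The next smallest was close at 18.8%, while cluster 0 had 29.8% and cluster 18, the smallest cluster, had 55.1%. Small clusters carry more counting error than large ones, and how much of the order in spread this sets was not tested.

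Protoplasts held few members. In Setaria protoplasts, cluster 2 took 1.73% of cells in replicate 1 (17 cells, 95% Wilson interval 1.08% to 2.76%), 0.908% in replicate 2 (41 cells, 0.670% to 1.23%) and 0.371% in replicate 3 (19 cells, 0.237% to 0.578%). The interval of replicate 3 lies below those of replicates 1 and 2, so protoplast libraries differed from each other beyond counting error. All Wilson intervals, and the limits given for counts of 0, cover counting error only. The sorghum protoplast library had 15 members, which is 0.426% of its cells (0.258% to 0.701%), between Setaria protoplast replicates 2 and 3.

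**Figure D1:**
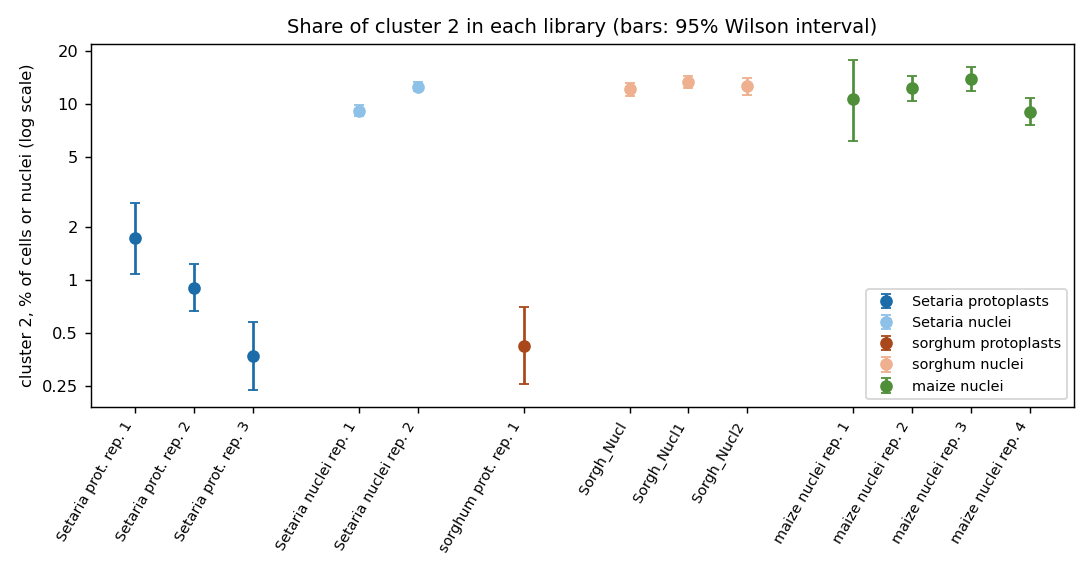
Each point is 1 library and shows cluster 2 as a percentage of its cells or nuclei on a log scale, with 95% Wilson intervals for counting error. The 4 protoplast libraries lie between 0.371% and 1.73%, and the 9 nuclei libraries between 9.03% and 13.8%.

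Being rare in protoplasts is what this cluster was chosen for, so the difference between preparations is described without a test. In Setaria the mean share was 1.00% ± 0.686 in protoplasts (SD, n = 3) and 10.8% ± 2.41 in nuclei (SD, n = 2), which is 10.8 times lower in protoplasts or −3.43 on the log2 scale. Without Setaria protoplast replicate 1 the share was 17.0 times lower in protoplasts, and without any other single Setaria library it was 8.21 to 12.5 times lower. In sorghum the share was 0.426% in the only protoplast library and 12.7% ± 0.588 in nuclei (SD, n = 3), 29.8 times lower in protoplasts or −4.90 on the log2 scale. The sorghum protoplasts were run with kit version 2 and all sorghum nuclei with version 3, so preparation and kit cannot be told apart in sorghum. In Setaria the only library not run with version 3 was protoplast replicate 1, which is the one left out for the value of 17.0 times. No protoplast library reached the share of any nuclei library of its species. Over all clusters, cluster 2 included, this was so for 26.3% in Setaria and 31.6% in sorghum.

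Cluster 5, the other cluster chosen for being rare in protoplasts, stood closest to cluster 2 in both species. Its log2 ratio of protoplasts to nuclei was −3.34 in Setaria and −4.12 in sorghum. The 2 clusters did not keep a fixed proportion, however. Per member of cluster 5 there were 5.67 members of cluster 2 in Setaria protoplast replicate 1, 0.612 in replicate 2 and 0.264 in replicate 3, against 0.833 and 1.18 in the nuclei of Setaria. The value of replicate 1 rests on 3 cells of cluster 5. In sorghum the ratio was 0.938 in protoplasts and 2.23, 2.27 and 1.02 in the nuclei libraries, and maize nuclei ranged from 1.46 to 4.00. Cluster 2 thus outnumbered cluster 5 in 8 of the 9 nuclei libraries and in 1 of the 4 protoplast libraries. These counts are not matched by species, because no maize protoplasts were analysed here. The sorghum protoplast library held 15 members of cluster 2 and 16 of cluster 5, which is nearly equal.

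**Figure D2:**
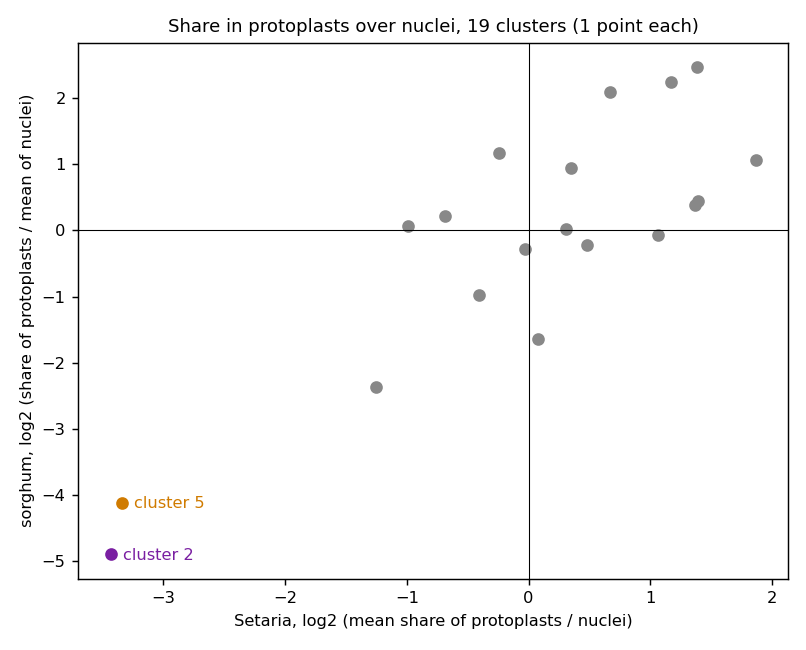
Each point is 1 of 19 clusters, placed by the log2 ratio of its share in protoplasts to its mean share in nuclei, in Setaria (horizontal) and in sorghum (vertical, 1 protoplast library). Clusters 2 and 5 lie apart at the lower left, at −3.43 and −3.34 in Setaria and at −4.90 and −4.12 in sorghum.

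The preparations were then set side by side above a shared minimum of UMIs, because protoplast libraries begin at 1611 to 2735 UMIs per cell and nuclei libraries at 650 to 1555. With all Setaria libraries restricted to cells of at least 2505 UMIs, the highest minimum among them, cluster 2 took 1.47%, 0.908% and 0.371% of protoplasts, against 5.86% and 9.46% of nuclei. With sorghum libraries restricted to at least 2735 UMIs, it took 0.426% of protoplasts, against 6.67%, 7.86% and 8.19% of nuclei. The share was then 8.36 times lower in Setaria protoplasts and 17.8 times lower in sorghum protoplasts. Shares of nuclei were smaller above this minimum than over all nuclei in both species. A shared minimum does not make depths equal, and most Setaria protoplasts of replicates 2 and 3 lie far above it.

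Within the range of 2000 to 4000 UMIs the preparations were closer, but their depths were not equal. Setaria protoplast replicates 2 and 3 begin at 2505 and 2501 UMIs and sorghum protoplasts at 2735, so they lack its lower part. Medians of the other clusters here were 2879, 3178 and 3143 UMIs for the Setaria protoplast replicates, against 2436 and 2522 for Setaria nuclei. The sorghum protoplast library had a median of 3596.5, against 2564, 2529 and 2255 for Sorgh_Nucl, Sorgh_Nucl1 and Sorgh_Nucl2. Cluster 2 took 2.76%, 2.70% and 2.27% of such protoplasts in Setaria replicates 1, 2 and 3, against 8.97% and 13.5% of such nuclei. The 3 Setaria protoplast libraries, which spanned 0.371% to 1.73% over all cells, were nearly equal here, and their intervals overlapped (1.24% to 4.65% in all). In sorghum, 4 of 264 protoplasts in this range were members (1.52%, 95% Wilson interval 0.591% to 3.83%), against 8.91%, 9.75% and 12.3% of nuclei. At these unequal depths, the share was 4.37 times lower in Setaria protoplasts and 6.80 times lower in sorghum protoplasts. Among cells of 8000 UMIs or more, cluster 2 took 0% to 0.387% of Setaria protoplasts, where 0 of 89 cells in replicate 1 allows a share of up to 3.37%, against 1.92% and 2.47% of Setaria nuclei. The sorghum protoplast library had 0.196% in that range, against 2.70% to 9.09% in sorghum nuclei. Libraries of maize nuclei held 9.77% to 15.6% members at 2000 to 4000 UMIs and 5.95% to 9.62% at 8000 or more. In both ranges the protoplast libraries of a species lay below its nuclei libraries, and in each of the 13 libraries the share was lower at 8000 UMIs or more than at 2000 to 4000. Several shares at 8000 or more rest on few members, with 1 of 16 nuclei in maize replicate 1. Sorgh_Nucl2 had 4 of 44 there (95% Wilson interval 3.59% to 21.2%), against 12.3% at 2000 to 4000. Not every decrease is thus beyond counting error.

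Each library was also cut into quintiles by UMIs per cell. In protoplasts, members sat mainly among the cells with the fewest UMIs. Setaria protoplast replicate 2 had 24 of its 41 members in the lowest quintile and 0 in the highest, which allows a share of up to 0.332% there, and replicate 3 had 13 of 19 members in the lowest quintile and 3 in the highest. Replicate 1 had 4 of 17 members in the lowest quintile and 7 in the next. In sorghum protoplasts 7 of 15 members fell in the lowest quintile and 1 in the highest.

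Nuclei showed a milder gradient in the same direction. Cluster 2 took a mean of 14.6% of the lowest quintile and 5.78% of the highest quintile in Setaria nuclei, 14.9% and 7.59% in sorghum nuclei, and 14.6% and 6.26% in maize nuclei. The highest quintile had the smallest share in all 9 nuclei libraries and in 3 of the 4 protoplast libraries, the exception being Setaria protoplast replicate 3. The lowest quintile had the largest share in 4 of the 9 nuclei libraries and 3 of the 4 protoplast libraries. Since clusters were built from the same transcripts that the UMIs count, these gradients are a description.

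**Figure D3:**
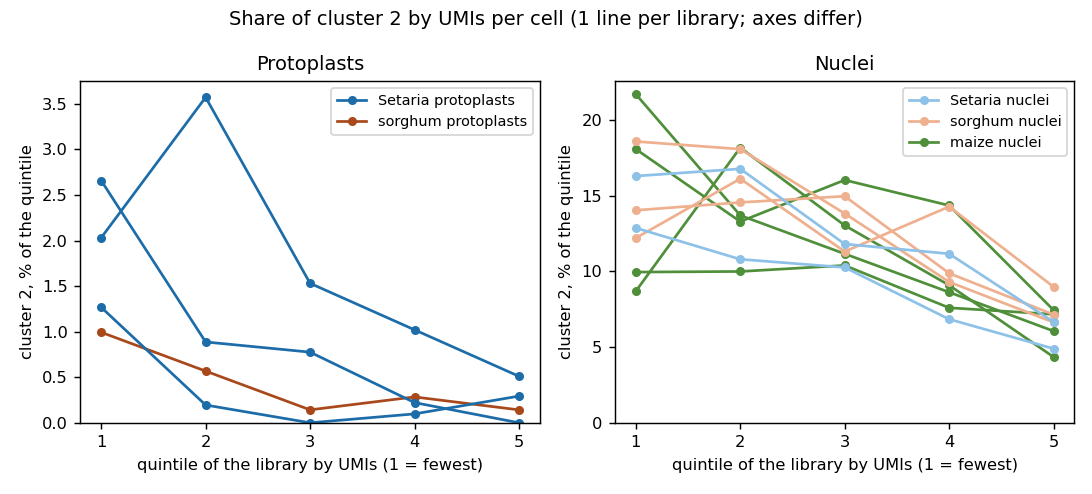
Each line is 1 library, and each point gives cluster 2 as a percentage of the cells in 1 quintile of that library, ordered by UMIs per cell, with protoplasts on the left and nuclei on the right on separate axes. In nuclei the highest quintile is the lowest point of all 9 lines, and in protoplasts 7 of 15 sorghum members and 24 of 41 members of Setaria replicate 2 fall in the lowest quintile.

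Members of cluster 2 held fewer UMIs than the other cells of their library in all 13 libraries, by much more in 2 of the Setaria protoplast libraries. Median UMIs in Setaria protoplasts were 2539, 5448 and 3982 for cluster 2 in replicates 1, 2 and 3, against 3609, 20213 and 22813 for all other clusters. Ratios of these medians were 0.704, 0.270 and 0.175. In Setaria nuclei the medians were 2160 and 2385 for cluster 2, against 2328.5 and 2579 for all other clusters, with ratios of 0.928 and 0.925.

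In sorghum the medians were 5078 UMIs for cluster 2 in protoplasts, against 9692 for all other clusters, a ratio of 0.524. In sorghum nuclei cluster 2 had medians of 1067, 1682.5 and 1834 UMIs, against 1190, 2027 and 1856, with ratios of 0.897, 0.830 and 0.988. In maize nuclei the ratios ran from 0.780 to 0.941. Of all members, 76 of 92 protoplasts (82.6%) and 2061 of 3369 nuclei (61.2%) lay below the median of their own library. That share ran from 73.3% to 87.8% over protoplast libraries and from 51.3% to 66.7% over nuclei libraries. The nearest ends of these ranges rest on few members, 11 of 15 in sorghum protoplasts and 8 of 12 in maize nuclei replicate 1. Other clusters were not examined in this way. As a result cluster 2 accounted for less of the RNA captured than of the cells, with 0.186% to 1.23% of all UMIs in Setaria protoplasts and 7.74% and 10.7% in Setaria nuclei. It made up 0.283% of UMIs in sorghum protoplasts, against 8.45% to 11.6% in sorghum nuclei, and 7.93% to 11.6% in maize nuclei.

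**Figure D4:**
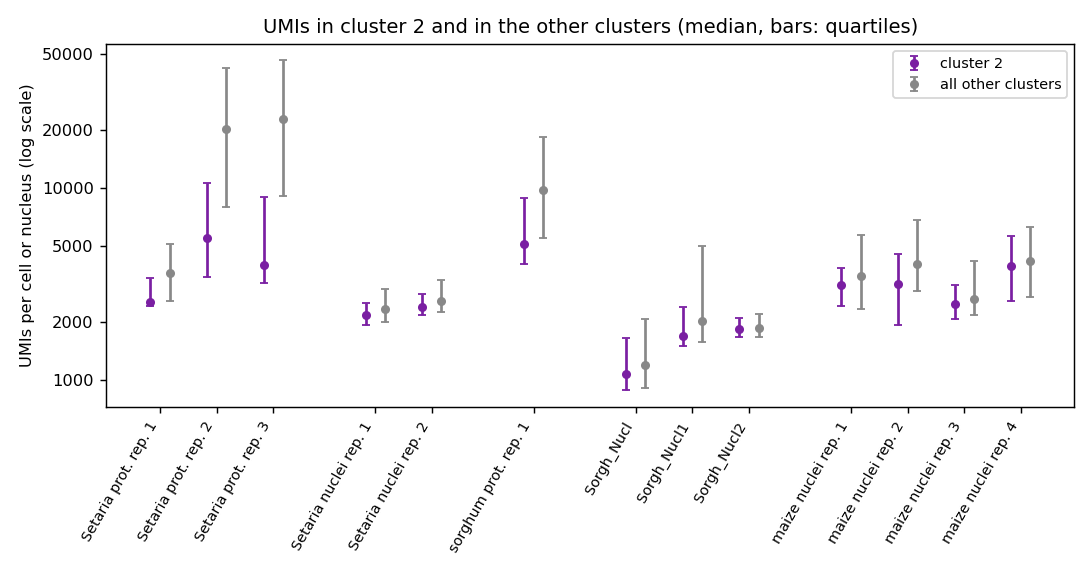
Points are median UMIs per cell or nucleus on a log scale, and bars run between the quartiles, for cluster 2 (left of each pair) and all other clusters of the same library. Cluster 2 lies below in all 13 libraries, most widely in Setaria protoplast replicates 2 and 3, at 5448 against 20213 and 3982 against 22813 UMIs.

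To compare libraries of unequal depth, the median log2 UMIs of cluster 2 was set against the median over all clusters of at least 10 cells in its library. This relative value was −0.46, −2.28 and −2.64 in Setaria protoplasts, against −0.06 and −0.11 in Setaria nuclei. Cluster 2 had the lowest value of all 19 clusters in Setaria protoplast replicates 2 and 3, and the second lowest of 17 in replicate 1. Counted from the lowest, it stood at place 4 of 19 in sorghum protoplasts, and at places 4 and 3 of 19 in Setaria nuclei replicates 1 and 2. In sorghum nuclei it stood at places 5 to 7 of 19, and in maize nuclei replicates 2 to 4 at places 5 to 9 of 18. The mean difference of protoplasts from nuclei was −1.71 (−2.38 without Setaria protoplast replicate 1), described without a test. Between 2000 and 4000 UMIs, where the range itself bounds the values, it was −0.02. In sorghum the relative value was −0.58 in protoplasts, against −0.05, −0.31 and −0.02 in the nuclei libraries, a mean difference of −0.46.

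Detected genes follow UMIs, so genes were compared at equal UMIs, as the residual of log2 genes from a curve fitted to all cells of the library. By this measure the members had more genes than the curve gives in all 4 protoplast libraries. The median residual was 0.03, 0.14 and 0.19 in Setaria protoplasts, against −0.02 in both Setaria nuclei libraries. It was 0.05 in the sorghum protoplast library, against −0.003 to 0.007 in sorghum nuclei. Counted from the lowest, cluster 2 was at place 12 of 17 clusters in Setaria protoplast replicate 1, and at places 18 and 19 of 19 in replicates 2 and 3. It was at place 13 of 19 both in sorghum protoplasts and in Sorgh_Nucl, and at place 7 of 19 in both Setaria nuclei libraries. Within 2000 to 4000 UMIs, median genes of cluster 2 and of the other clusters were 1270 and 1349 in Setaria protoplast replicate 1, 1842.5 and 1739 in replicate 2, and 2009 and 1705 in replicate 3. Cluster 2 was thus higher in replicates 2 and 3 at nearly equal UMIs, and lower in replicate 1, where its members also had fewer UMIs (2518.5 against 2879). In Setaria nuclei of that range, cluster 2 had 1431.5 and 1469 genes, against 1505 and 1535 for other clusters, again with fewer UMIs (2306.5 and 2402, against 2436 and 2522). The 4 sorghum protoplasts of cluster 2 in that range had a median of 1743.5 genes, against 1771 for other clusters, at slightly more UMIs (3617.5 against 3596.5). Within that range, then, only Setaria protoplast replicates 2 and 3 among the protoplast libraries had more genes in cluster 2.

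Species were compared in nuclei, a comparison on which cluster 2 had not been chosen. Shares of Setaria and sorghum nuclei, but not of maize nuclei, also enter the contrast of preparations for which it was chosen. A difference between the 3 grasses in the share of cluster 2 was not detectable. The mean share was 12.7% ± 0.588 in sorghum (SD, n = 3) and 11.4% ± 2.08 in maize (SD, n = 4), a log2 fold of 0.14 (SE 0.43, 95% interval −0.71 to 0.99). In Setaria it was 10.8% ± 2.41 (SD, n = 2), a log2 fold of −0.08 over maize (SE 0.48, −1.04 to 0.87) and of −0.22 over sorghum (SE 0.50, −1.22 to 0.77). edgeR's quasi-likelihood test gave adjusted p of 0.786, 0.910 and 0.877 in this order, and none of these passed the threshold of 0.05. In each of the 3 contrasts 0% of the 19 clusters were called, with 0, 1 and 0 clusters at an unadjusted p under 0.05, and DESeq2 and limma also called 0. Exact two-sided permutation over libraries gave unadjusted p of 0.457, 0.8 and 0.2, where the smallest possible values are 0.0286, 0.0667 and 0.1. The intervals reach a share 1.99 times as large in sorghum as in maize, and 0.485 times as large in Setaria as in maize or 0.430 times as large in Setaria as in sorghum, so the shares are not shown to be equal. The fit behind these intervals also took in the spread between protoplast libraries. The intervals were narrower when nuclei libraries alone were fitted, at −0.43 to 0.70 for sorghum over maize, −0.72 to 0.54 for Setaria over maize and −0.87 to 0.42 for Setaria over sorghum.

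Relative UMIs of cluster 2 did not differ detectably between species either. They averaged −0.13 ± 0.16 in sorghum nuclei and −0.16 ± 0.17 in maize nuclei (SD, n = 3 and 4), a difference of 0.03 (SE 0.41, limma adjusted p = 0.935). Setaria nuclei averaged −0.09 ± 0.04 (SD, n = 2), which differed by 0.08 from maize (SE 0.46, limma adjusted p = 0.921) and by 0.04 from sorghum (SE 0.49, limma adjusted p = 0.979). Of 18, 18 and 19 clusters with a value, 0% were called in these 3 contrasts, and 2, 1 and 0 had an unadjusted p under 0.05. The SEs above come from the fit over all grass groups, where Setaria protoplasts had an SD of 1.17. With nuclei libraries alone in the fit, the SEs were 0.12, 0.14 and 0.14 in the same order, and no contrast passed for cluster 2. The 95% interval was then −0.24 to 0.31 for sorghum minus maize, −0.24 to 0.39 for Setaria minus maize, and −0.29 to 0.37 for Setaria minus sorghum. In maize nuclei replicate 1 only 4 clusters had at least 10 nuclei, so its relative value rests on those.

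Genes at equal UMIs were close to the library curve in nuclei of all 3 grasses. The mean residual was −0.0167 ± 0.000593 in Setaria (SD, n = 2), 0.000866 ± 0.00525 in sorghum (SD, n = 3) and −0.000842 ± 0.00487 in maize (SD, n = 4). Sorghum differed from maize by 0.002 (SE 0.028, limma adjusted p = 0.979), Setaria from maize by −0.016 (SE 0.032, limma adjusted p = 0.858) and Setaria from sorghum by −0.018 (SE 0.034, limma adjusted p = 0.829). Again 0% of 18, 18 and 19 clusters were called, with 0, 2 and 0 at an unadjusted p under 0.05. Both Setaria values lay below all 7 values of the other grasses, but how many other clusters were separated in this way was not counted. The SEs above come from a fit that took in Setaria protoplasts, whose residuals had an SD of 0.0803. When nuclei libraries alone were fitted, the difference of Setaria from sorghum passed (SE 0.006, limma adjusted p = 0.0461). In that contrast 6 of 19 clusters passed, cluster 2 among them. The difference of Setaria from maize did not (SE 0.005, limma adjusted p = 0.0641), while 4 of 18 clusters passed in that contrast.

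**Figure D5:**
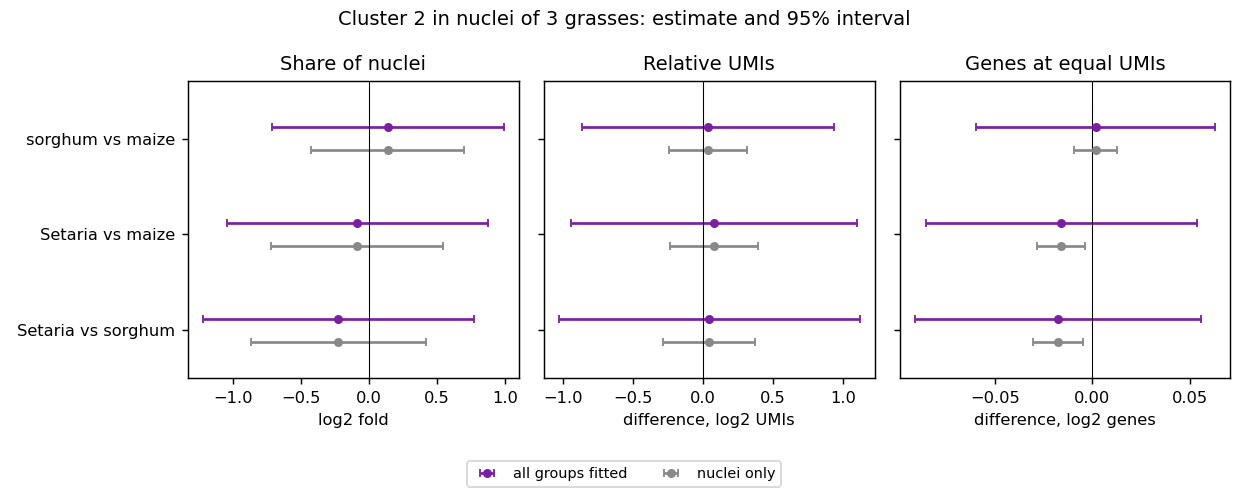
Points are the difference of cluster 2 between nuclei of 2 species, with the first named over the second, and bars are 95% intervals from fits over all grass groups (purple) or nuclei libraries alone (grey), for share (log2 fold), relative UMIs and genes at equal UMIs. Every purple interval spans 0, and the grey intervals for genes in Setaria, centred on −0.016 and −0.018, do not.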

How the data were processed

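Per the labels' protocols, protoplasts or nuclei of root tips were filtered and run on the 10x Chromium 3' kit. For each cell the authors deposited raw counts of UMIs and detected genes, its library and its cluster. Clustering of the integrated libraries used a resolution of 0.6, per the file headers. Per the submitters' processing notes, Cell Ranger 5.0.1 and Seurat 4.0 were used. Cell filters, doublet treatment and grass genome builds: not given in the sources used here. A further 3 libraries of maize protoplasts (4324 cells), made in another study, were left out. Setaria protoplast replicate 1 was assigned by elimination, and sorghum nuclei libraries are used without replicate numbers.

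The library is the replicate. Cells per cluster were tested by the quasi-likelihood method of edgeR 4.0.16 (robust, no trend) in 1 fit over all grass groups, with each library's number of cells as its size and clusters of at least 10 cells. Relative UMIs and gene residuals (quadratic fit within the library) were tested with limma 3.58.1 (robust eBayes). All tests were two-sided, adjusted by Benjamini-Hochberg over the clusters of a contrast. The edgeR test of shares and the limma test of relative UMIs were also run on simulated data. Alternatives included DESeq2 1.42.0, limma on log2 odds and a minimum of 2000 UMIs. Wilson intervals are at 95% (scipy 1.17.1), and a count of 0 allows 3 counts. Cluster 2, the clusters named beside it (cluster 5 and its neighbours in mean share of nuclei) and the tests were chosen with earlier results of these data known.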

Additional observations from a re-analysis of the deposited data

Results flagged for a closer look

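In maize nuclei replicate 1, cluster 2 held 12 nuclei, far from the 113, 121 and 130 of replicates 4, 2 and 3 (Dixon's test at 95%). That library held 113 nuclei in all, and its share of cluster 2, at 10.6%, lay within the range of the other 3. Of 15 values examined this way in maize nuclei this was the only flag, and chance flags about 1 in 20.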

How the results depend on the processing

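Of 130 values recomputed for 13 results, 110 kept their direction and their side of the threshold or moved by less than the spread between libraries. Sorghum has a single protoplast library, so its counting interval stood in for that spread in shares. For relative UMIs in sorghum only the spread between nuclei libraries was used. All 9 tested differences between species were near 0 and missed the threshold in the main fits, so those fits do not settle their signs. For genes at equal UMIs of Setaria minus sorghum, the sign stayed negative in all 9 alternatives (−0.0195 to −0.0146). Signs reversed with at least 2000 UMIs for the share of sorghum over maize (−0.24) and of Setaria over sorghum (0.16), with TMM factors for Setaria over maize (0.0806), and with clusters of at least 20 cells for relative UMIs of sorghum minus maize (−0.0216).

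Leaving out 1 library gave log2 folds in share of 0.03 to 0.25 for sorghum over maize, −0.33 to 0.13 for Setaria over maize and −0.47 to −0.01 for Setaria over sorghum. Relative UMIs then differed by −0.0209 to 0.127 for sorghum minus maize, by 0.0249 to 0.129 for Setaria minus maize, and by −0.0498 to 0.0981 for Setaria minus sorghum. Genes at equal UMIs differed by −0.00129 to 0.00407 for sorghum minus maize, by −0.0169 to −0.0135 for Setaria minus maize, and by −0.0195 to −0.0146 for Setaria minus sorghum. None of these passed. With nuclei libraries alone, the gene difference of Setaria from sorghum (−0.018) passed.

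The replicate number, used as a block for Setaria and maize libraries, gave −0.45 for the share, −0.0379 for relative UMIs and 0.000603 for genes, none of which passed. Deviations of same-numbered maize and Setaria nuclei correlated at 0.10 and −0.06. Those of Setaria protoplasts and nuclei correlated at −0.47 and −0.32, and those of maize nuclei and Setaria protoplasts at −0.11 to 0.03. The values with Setaria nuclei cannot exclude pairing, because the deviations of these libraries from their mean are exact opposites and give no separate checks. For UMIs and genes that fit held only 4 clusters. No paired analysis was possible for sorghum nuclei because only the group of each such library is certain from its name.

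For protoplasts against nuclei at 2000 to 4000 UMIs, the log2 ratio of shares was −2.13 in Setaria and −2.77 in sorghum, and the difference in relative UMIs was −0.02 in Setaria, while sorghum had too few protoplasts there for a value. Above the highest library minimum the sorghum ratio of shares was −4.15. Against the median over all cells, relative UMIs of sorghum differed by −0.81. Leaving out 1 library gave −4.08 to −3.04 in Setaria and −4.93 to −4.86 in sorghum for shares, and −2.38 to −1.28 and −0.55 to −0.40 for relative UMIs. The few protoplast members (15 to 41 a library, and only 4 to 14 at 2000 to 4000 UMIs) limit these values. Depths of the preparations were also unequal within 2000 to 4000 UMIs.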
